A study of Mus musculus with 11 samples.

Results

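Polo-like kinases are serine/threonine kinases that pair a catalytic domain with polo-box domains, which dock onto phosphorylated partner proteins. Plk1 drives mitosis and Plk4 drives centriole duplication, whereas Plk2 and Plk3 are early response kinases whose transcripts are induced by serum, stress and DNA damage in many cell types. Plk2 has also been tied to centriole duplication and to the phosphorylation of alpha-synuclein, and Plk3 to stress and p53 signalling. The results below describe the transcripts of Plk2 and Plk3, 2 genes of the 12143 that could be tested, in alveolar macrophages, which patrol the air spaces of the lung and clear inhaled particles.

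Plk2 and Plk3 were selected on their symbols and on measured values, since the array signals of Plk2 at day 30 showed one of the largest falls of all genes. The day 30 differences of both kinases are therefore given as a description without a test. Each kinase had 1 transcript cluster on the array, and all 5 mouse polo-like kinases were represented.

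RNA was measured on 11 Affymetrix arrays, 1 for each of 11 female C57BL/6J mice labelled as 6 weeks of age and as biological replicates. The control group (n = 4) received 5 injections of PBS over 10 days and had its lavage on day 10. In the acute group (n = 3), mice received 5 injections of CpG 1826, an oligonucleotide ligand of the DNA sensor Tlr9, over the same 10 days and had their lavage on day 10 as well, as a model of macrophage activation syndrome. The resolution group (n = 4) received the same CpG course and was lavaged on day 30. Cells from bronchoalveolar lavage were purified by adherence in all groups. No PBS group was lavaged on day 30, so CpG history and day of lavage cannot be told apart in any comparison with the resolution group.

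The arrays were alike in signal, with median intensities of 51.4 to 57 and 8731 to 8952 genes above background. Background was the 90th percentile of 23 antigenomic probe sets, designed to hybridise to nothing in the mouse, and lay between 6.12 and 6.24 on the log2 scale. All 10 alveolar macrophage markers on the array lay above background on every array. Their mean log2 level was 14.58 to 14.65 in control, 14.52 to 14.64 in acute and 14.75 to 14.84 in resolution arrays. Single markers moved in both directions. By limma, 3 of the 10 rose and 1 fell at day 30 against control (adjusted p under 0.05), where 9.6% and 9% of all genes did. Cidec rose by 1.33 and Fabp4 fell by 1.20 log2 units. All levels and differences below are on the scale log2(intensity + 1), with SD for group means and SE for differences.

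The region before each transcription start is shown first, because it shows what the starts of these kinase genes share and where they differ. Each run holds the 250 bases upstream of the RefSeq start in the mouse build GRCm38.p6, written 5′ to 3′ on the strand of the gene. Capitals mark each match to TGACGT on either strand. The Plk2 region is chr13:110394794-110395043 on the plus strand and the Plk3 region is chr4:117133964-117134213 on the minus strand.
Plk2: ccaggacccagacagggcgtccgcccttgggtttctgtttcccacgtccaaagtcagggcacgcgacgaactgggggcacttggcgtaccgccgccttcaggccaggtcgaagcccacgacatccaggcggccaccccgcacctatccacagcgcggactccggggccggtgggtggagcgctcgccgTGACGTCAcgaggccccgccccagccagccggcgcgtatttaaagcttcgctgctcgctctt
Plk3: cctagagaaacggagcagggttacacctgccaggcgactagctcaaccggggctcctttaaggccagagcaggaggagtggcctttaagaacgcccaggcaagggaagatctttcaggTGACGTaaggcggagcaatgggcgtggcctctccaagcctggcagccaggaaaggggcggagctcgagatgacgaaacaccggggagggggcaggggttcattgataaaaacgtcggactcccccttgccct

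The Plk2 region was 68.4% G and C and the Plk3 region 60%. The Plk2 region held the palindrome TGACGTCA, the letters of the cyclic AMP response element bound by CREB and ATF factors, from base -62 to base -55 before the start. It is made of 2 overlapping copies of TGACGT on opposite strands. The palindrome was found in 1.79% of 32851 RefSeq promoter windows that reach from 250 bases before to 50 bases after a start. Among the 9901 tested genes with such a window, 3.45% held it. The Plk3 region held the shorter TGACGT, from base -132 to base -127, which 7.51% of the windows and 12.5% of tested genes held. Both held GGGCGG, the GC box, as did 35.7% of the windows and 61.7% of tested genes. On both strands of the full windows, no match was found in either kinase to TGANTCA (AP-1), CACGTG (E-box), TGANNNNGC (antioxidant response element core), GCGTGGGCG (EGR1), CCAAT or TATAAA, or to the CArG box, p53 half-site and NF-kB consensus. A match is a run of letters and not a measured binding site.

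Plk2 was well above background in control and acute macrophages and was not above background on 3 of the 4 resolution arrays. In control arrays the log2 level was 12.07, 12.50, 11.90 and 12.49, a mean of 12.24 ± 0.30 (SD, n = 4). In acute arrays it was 12.18, 11.02 and 11.21, a mean of 11.47 ± 0.62 (SD, n = 3). In resolution arrays it was 6.82, 6.07, 5.89 and 6.01, a mean of 6.19 ± 0.42 (SD, n = 4). All 4 resolution arrays lay far below the lowest of the other 7, and 1 of them, replicate 1, was above its own background. On the linear scale, Plk2 intensity was 3818 to 5794 in control, 2083 to 4655 in acute and 58.2 to 111.7 in resolution arrays.

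At the end of the CpG course Plk2 did not pass the test. This comparison was not itself used to choose the gene. It shares the control arrays with the day 30 difference that was used, so it is not independent of the choice. The difference, acute minus control, was -0.77 ± 0.29 (SE; 95% interval -1.40 to -0.14), a level 1.70-fold lower, with an unadjusted p of 0.0202 and an adjusted p of 0.443 (limma, Benjamini-Hochberg over 12143 genes). Acute replicate 1, at 12.18, lay within the range of the control arrays, whereas the other 2 acute arrays lay below all of them. Without that array the difference was -1.13 (adjusted p = 0.191 by limma), and without acute replicate 2 it was -0.55 (adjusted p = 0.813). Only 72 of the 12143 genes had a difference as low as or lower than that of Plk2, and in the same comparison 0.239% of all genes passed the test in either direction.

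At day 30 the level of Plk2 was lower than in control by 6.05 ± 0.27 log2 units (difference -6.05), or at least 66.1-fold. The fold is a lower bound because the resolution mean was no more than 1 SD above the mean background of its arrays, 6.19. Against the acute group the difference was -5.28 ± 0.29, or at least 38.8-fold. Both differences use the same resolution arrays, so they are not independent of each other. Leaving out any 1 of the 11 arrays moved the difference from control between -6.25 and -5.94. No overlap with the control arrays in the lower direction was also seen for 11.2% of all genes, and with the acute arrays for 12.9%.

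In the order of differences from control, Plk2 was the second lowest of 12143 genes. Plpp3, a phosphatase of bioactive lipid phosphates, was the lowest at -6.42. After Plk2 came Slc7a11, the cystine importer, at -4.30, Hmox1, which degrades heme, at -3.94 and Met, the hepatocyte growth factor receptor, at -3.61. This order restates the choice of Plk2, and the values of Plk2 and Met, with 1 and 0 of 4 resolution arrays above background, are bounded by that background.

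Plk3 was well above background on every array, at a similar level in the 3 groups. Its log2 level was 14.43, 14.55, 14.27 and 14.07 in control arrays, a mean of 14.33 ± 0.21 (SD, n = 4). In acute arrays it was 14.32, 13.78 and 14.02, a mean of 14.04 ± 0.27 (SD, n = 3). In resolution arrays it was 14.63, 14.12, 14.35 and 14.58, a mean of 14.42 ± 0.24 (SD, n = 4). The ranges of the 3 groups overlapped, and on the linear scale they were 17230 to 24040, 14040 to 20430 and 17740 to 25310.

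The acute level of Plk3 differed from control by -0.29 ± 0.17 (SE; 95% interval -0.67 to 0.08; adjusted p = 0.654 by limma), a 1.22-fold lower mean that did not pass the test. The resolution level differed from control by 0.09 ± 0.16 and from acute by 0.38 ± 0.17, which is 1.30-fold. In the order of differences at day 30 against control, Plk3 was number 7361 of 12143 from the lowest, with 60.6% of genes at or below it. The order of group means was acute, control and resolution for Plk3, and neighbours in this order differed by about the spread within groups or less. For Plk2 the order was resolution, acute and control, with acute and control arrays overlapping and resolution apart.

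**Figure D1:**
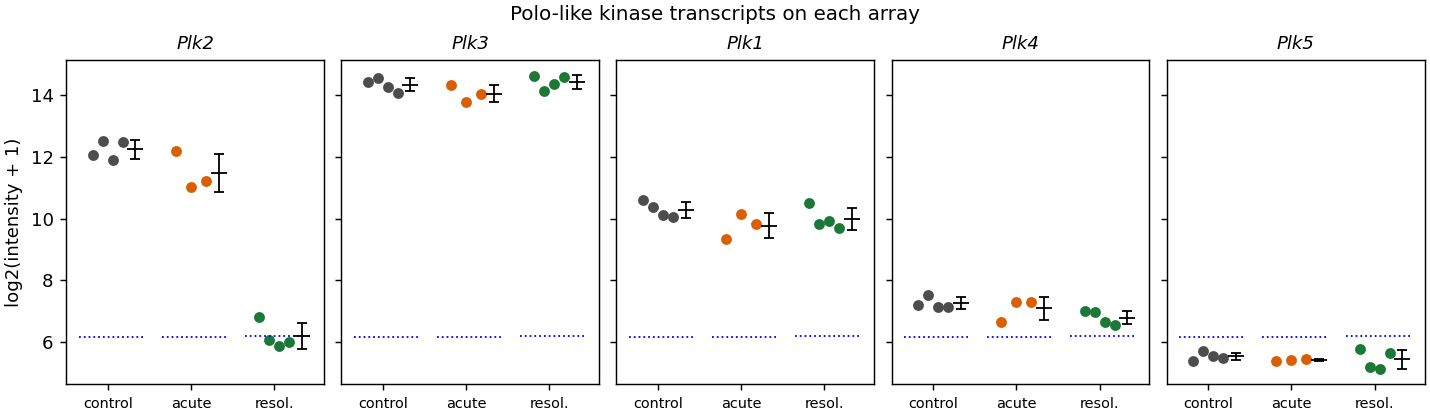
Signal of the 5 polo-like kinases on each array. The vertical axis is log2(intensity + 1); points are arrays (control, n = 4; acute, n = 3; resolution, labelled resol., n = 4), the bars beside them give the mean ± SD, and dotted lines mark the mean background of each group. Plk2 lies at 11.02 to 12.50 on the 7 day 10 arrays and at 5.89 to 6.82 at day 30, while Plk3 stays between 13.78 and 14.63 throughout.

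The other kinases of the family were then tested in every comparison, since none of them was used for the choice. Plk1, the mitotic kinase, had log2 means of 10.28 ± 0.25 in control, 9.77 ± 0.41 in acute and 9.99 ± 0.36 in resolution arrays. It did not pass the limma test at the end of the course (-0.51 ± 0.23, adjusted p = 0.521), at day 30 against control (-0.30 ± 0.21, adjusted p = 0.377) or against acute (0.22 ± 0.23, adjusted p = 0.583). Plk1 arrays of all 3 groups overlapped, with acute replicate 1 the lowest at 9.34.

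Plk4, the centriole duplication kinase, was dim, with log2 means of 7.26 ± 0.19, 7.10 ± 0.37 and 6.80 ± 0.23 in control, acute and resolution arrays. At day 30 the 4 arrays (7.0, 6.98, 6.67 and 6.55) lay below all 4 control arrays (7.20, 7.54, 7.13 and 7.15). Such a lack of overlap in the lower direction was seen for 11.2% of all genes. The difference of -0.46 ± 0.17 did not pass the limma test (adjusted p = 0.0862), although it did without acute replicate 1 (adjusted p = 0.0440). The difference of acute from control was -0.16 ± 0.19 (adjusted p = 0.845 by limma) and that of resolution from acute -0.30 ± 0.19 (adjusted p = 0.327). Plk5, a member known mainly from the brain, was below background on all 11 arrays, at 5.14 to 5.77, so its differences carry no fold. A p above the threshold does not show that Plk1 and Plk4 were unchanged, and the intervals in the plot of family differences give the sizes that remain possible.

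**Figure D2:**
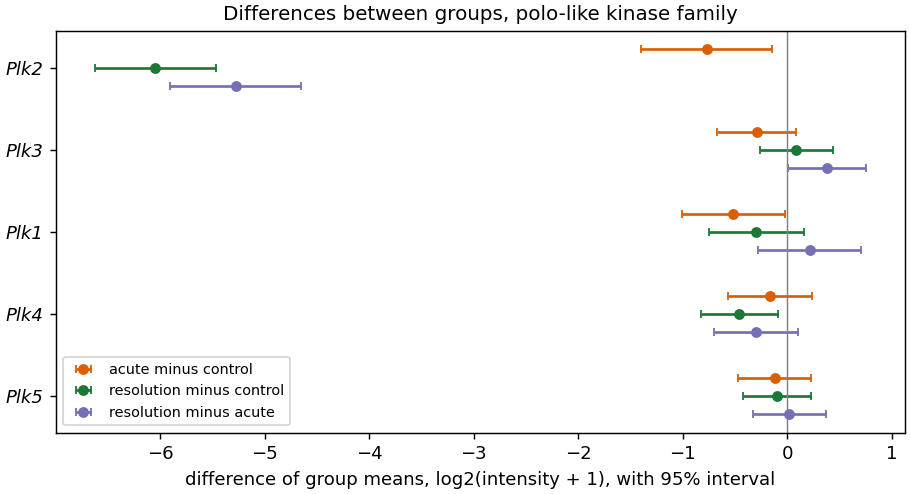
Differences between group means for the 5 polo-like kinases. The horizontal axis is the difference in log2(intensity + 1) with its 95% interval from limma, and colours mark the 3 comparisons; the day 30 intervals of Plk2 and Plk3 are descriptive. Plk2 lies at -6.05 and -5.28 in the comparisons with day 30, and the other 4 kinases lie between -0.51 and 0.38 in all 3 comparisons.

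Other cell types in the lavage were followed by their markers. Of 12 listed markers of airway and alveolar epithelium, 11 were on the array. Their mean level was 8.15 to 8.71 in control, 9.25 to 9.89 in acute and 7.46 to 7.84 in resolution arrays, with 3 of the 11 below background on every resolution array. Scgb1a1, the club cell secretory protein, had log2 means of 8.93, 11.16 and 7.49 in the same order. All 7 markers of T and NK cells on the array were below background on every control and resolution array, as were 5 of the 7 on the acute arrays. The other 2, Il2rb and Cd3d, were above background on every acute array. Il2rb rose by 2.03 from control to acute (adjusted p = 0.0196 by limma), where 0.239% of all genes passed in either direction. Cd3d differed by 0.80 and did not pass (adjusted p = 0.102). Neutrophil markers (5 on the array) had a mean level of 7.35 to 9.21 in control, 7.60 to 7.65 in acute and 7.16 to 7.59 in resolution arrays, and monocyte markers (4) of 4.96 to 5.34, 5.42 to 6.29 and 4.92 to 5.25. Mean levels of B cell, dendritic cell, endothelial and fibroblast markers lay between 4.13 and 5.37 on all arrays. Single markers stood out on control replicate 4, where the endothelial gene Cdh5 was 7.42 and the neutrophil gene Retnlg 7.11, above background. In the other control arrays they were 4.18 to 4.39 and 4.01 to 4.43. The neutrophil marker S100a8 was 12.16 on control replicate 4 and 8.55 to 9.81 in the other control arrays. The red cell gene Alas2 was 15.15, 6.99 and 9.26 on acute replicates 1, 2 and 3, and 5.54 to 7.25 in the other arrays. Among those other arrays it was highest on resolution replicate 1. Acute replicate 1 and resolution replicate 1 were also the highest of their groups for Plk2. In control arrays Alas2 was highest on replicate 4 and Plk2 on replicate 2. Of the 9 epithelial markers that could be tested, 7 had means highest in acute and lowest in resolution arrays. The other 2, Epcam (7.73, 7.50 and 8.01 in control, acute and resolution) and Cdh1 (13.05, 12.97 and 13.42), ran the opposite way. The part of these markers in the levels of Plk2 was not tested. In these bulk samples, fewer cells carrying Plk2 and less Plk2 RNA per cell cannot be told apart.

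Genes next to both kinases on the chromosome were examined for a shared change. On chromosome 13, the nearest named protein-coding neighbours of Plk2 in the RefSeq table are Rab3c and Gapt on one side and Actbl2 and Gpbp1 on the other. Gapt, a transmembrane adaptor of blood cells that binds Grb2, lies next to Plk2 and rose at day 30. Its log2 level was 5.80, 5.64, 5.62 and 5.74 in control and 5.23, 5.40 and 5.69 in acute arrays, all below background. At day 30 it was 8.04, 7.72, 7.86 and 7.78, above every other array. The difference from control was 2.15 ± 0.12 (at least 3.23-fold, adjusted p = 8.16e-07 by limma) and from acute 2.41 ± 0.13 (at least 3.17-fold, adjusted p = 6.31e-07). Background shares for genes called higher in these comparisons were 9.6% and 7.77%.

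Gpbp1, which binds GC-rich promoters, had log2 means of 11.82 ± 0.18 in control, 11.85 ± 0.20 in acute and 11.56 ± 0.17 in resolution arrays, and its day 30 difference of -0.26 ± 0.14 did not pass the limma test (adjusted p = 0.215). Rab3c and Actbl2 were below background on every array. Of the neighbours of Plk2 that could be tested, Gapt thus rose and Gpbp1 passed in neither direction. On chromosome 4, Plk3 overlaps Tctex1d4 in the RefSeq table. Tctex1d4 was below background in all groups, with means of 4.33 to 4.37. Whether Plk3 probes lie in the overlap was not examined. Kif2c, a microtubule-depolymerising kinesin of mitosis and the other neighbour of Plk3 on the array, had log2 means of 7.63, 7.15 and 7.71. It rose from acute to resolution by 0.57 ± 0.16 (1.48-fold, adjusted p = 0.0356 by limma). That call was lost with arrays scaled to a common median (adjusted p = 0.0755), with quantile normalization (0.103), with the replicate block (0.0952) and without any 1 of 6 arrays.

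**Figure D3:**
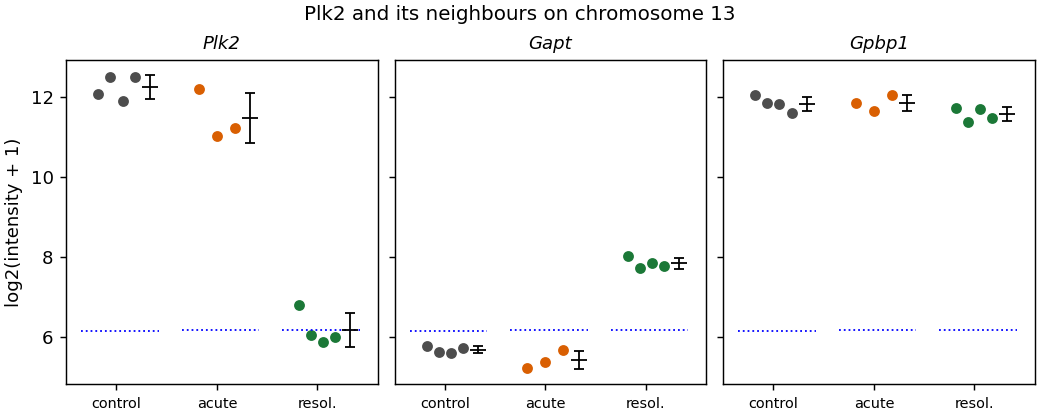
Signal of Plk2 and of its chromosome 13 neighbours Gapt and Gpbp1 on each array. The vertical axis is log2(intensity + 1), points are arrays by group (resolution is labelled resol.), bars give the mean ± SD and dotted lines the mean background. At day 30 Plk2 lies near background while Gapt lies at 7.72 to 8.04 and Gpbp1 at 11.37 to 11.71.

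Genes reported to be substrates or partners of Plk2 and Plk3 were counted next. Of 17 listed, 13 were on the array and 12 could be tested. By limma, 0 passed in acute versus control, against 1 at an unadjusted p under 0.05 (Tsc1, -0.68, adjusted p = 0.341). Over all 12143 genes, 0.239% passed there and 1099 had an unadjusted p under 0.05. At day 30 against control, 0 rose and 4 fell, where 9% of all genes were called lower, and the median difference was -0.21 against 0.0035 for all genes. No further member passed an unadjusted p under 0.05.

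Hif1a, the oxygen-regulated transcription factor, was 13.77, 13.85, 13.85 and 14.12 in control and 13.76, 13.45 and 13.78 in acute arrays. At day 30 it was 12.94, 12.80, 12.87 and 12.65, below every other array. It fell by 1.08 from control (2.12-fold, adjusted p = 7.54e-05 by limma) and by 0.85 from acute (adjusted p = 0.0012). Jun, an AP-1 subunit, fell by 0.86 from control (1.81-fold, adjusted p = 0.0036) and by 0.73 from acute (adjusted p = 0.0179), the latter lost without acute replicate 2 (0.0640) or 3 (0.0821). Tsc1, an inhibitor of mTORC1 signalling, fell by 1.12 from control (2.17-fold, adjusted p = 0.0023) and differed from acute by -0.44 (adjusted p = 0.217). Fbxw7, a substrate receptor of an SCF ubiquitin ligase, fell by 0.75 from control (1.68-fold, adjusted p = 0.0234), a call lost without control replicate 1 (0.0560), control replicate 2 (0.0517) or resolution replicate 2 (0.0656). Against acute, 0 rose and 2 fell, Hif1a and Jun, where 6.69% of all genes were called lower. Over all genes 943 were called higher and 812 lower in that comparison, which became 676 and 987 with arrays scaled to a common median and 685 and 1151 with quantile normalization.

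Immediate early genes, a class of rapidly induced genes to which Plk2 and Plk3 belong, are the next frame for the kinases. Of 30 listed, without the kinases themselves, all 30 were on the array and 27 could be tested. By limma 0 passed in acute versus control, against 3 at an unadjusted p under 0.05. There 0.239% of all 12143 genes passed and 1099 had an unadjusted p under 0.05. The member with the smallest p there was Gadd45b, a stress-induced signalling gene (0.40, adjusted p = 0.295). At day 30 against control 14 rose and 5 fell, where 9.6% of all genes were called higher and 9% lower, and the median difference was 0.63 against 0.0035 for all genes. The difference of Plk2 lay below those of all 27, and that of Plk3 lay above 9 and below 18.

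Fosb, an AP-1 subunit, had the largest rise of the list. It was 9.37, 9.16, 9.48 and 8.54 in control, 9.51, 10.03 and 9.30 in acute and 12.46, 13.78, 13.98 and 13.45 in resolution arrays. It rose by 4.28 ± 0.31 from control (19.4-fold, adjusted p = 3.49e-06 by limma). The orphan nuclear receptors Nr4a2 and Nr4a1 rose by 2.51 (5.69-fold) and 2.09 (4.26-fold), and the transcription factor Klf4 by 2.03 (4.09-fold). The 5 that fell were Fosl1, an AP-1 subunit (-1.97, at least 3.92-fold), Klf6 (-1.26), Myc (-0.93), Jun (-0.86) and Atf3, a stress-induced factor (-0.61). The fallers beyond the named rule, Fosl1, Klf6, Myc and Atf3, were named after their values had been seen. Myc passed narrowly (adjusted p = 0.0409) and lost its call without any 1 of 8 arrays, up to 0.110, and also with no filter on dim genes (0.0534) and with only the 2 groups compared (0.0663). Atf3 lost its call without control replicate 2 (0.0540).

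Against acute, 12 immediate early genes rose and 4 fell, where the shares over all genes were 7.77% and 6.69%. Fosb rose by 3.81, Nr4a2 by 1.81, Klf4 by 1.77 and Nr4a1 by 1.54. Without acute replicate 3 the genes called there numbered 10 in both directions together, against 16 with all arrays. Of 25 list members with a RefSeq promoter window, 3 held the TGACGTCA palindrome and 8 held TGACGT, where 3.45% and 12.5% of tested genes did.

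**Figure D4:**
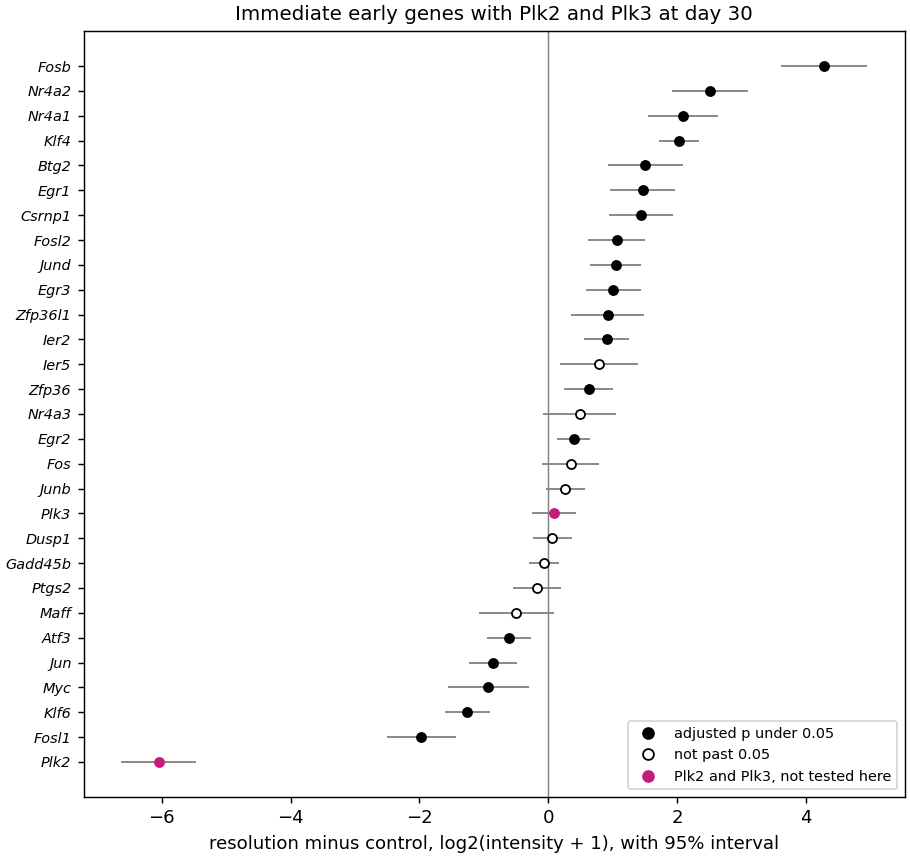
Day 30 differences of 27 immediate early genes, with Plk2 and Plk3. The horizontal axis is resolution minus control in log2(intensity + 1) with its 95% interval; filled points passed the limma test, open points did not, and Plk2 and Plk3 are untested here. Fosb is highest at 4.28, Fosl1 is the lowest of the list at -1.97 and Plk2 lies at -6.05.

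Both kinases have been described as p53 targets, so other p53 target genes were counted. Of 23 listed, 21 were on the array and 16 could be tested. By limma 0 passed in acute versus control, and 0 also at an unadjusted p under 0.05. At day 30 against control 3 rose and 3 fell of the 16, with a median difference of 0.07, where 9.6% and 9% of all genes were called higher and lower. Gadd45a, a growth arrest gene, fell by 2.12 (4.34-fold, adjusted p = 0.0002 by limma), from 9.20 ± 0.58 to 7.09 ± 0.47. Mdm2, the ubiquitin ligase that holds p53 down, fell by 1.19 (2.29-fold), and Fas, a death receptor, fell by 1.04 (at least 2.06-fold). Btg2, an antiproliferative gene also on the immediate early list, rose by 1.5 (2.84-fold), Sesn2 by 1.08 (at least 1.14-fold) and Perp by 0.89 (1.85-fold). Cdkn1a, the cell cycle inhibitor p21 and a classical p53 target, did not pass the test, with log2 means of 16.25, 16.36 and 16.46. Against acute, 2 rose and 3 fell, where the shares over all genes were 7.77% and 6.69%. There Gadd45a fell by 2.15, Fas by 1.27 and Mdm2 by 0.91, and Btg2 rose by 1.5 and Perp by 0.72. Perp, Cdkn1a and the value of Fas against control were named after their values had been seen.

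Mitotic and centriole genes, which surround the polo-like kinases in the cell cycle, were counted in the same way. Of 28 listed mitosis genes 25 could be tested, and by limma 0 passed in acute versus control, against 3 at an unadjusted p under 0.05. In that comparison 0.239% of all 12143 genes passed and 1099 had an unadjusted p under 0.05. The smallest p there was that of Bub1, a spindle checkpoint kinase (-0.77, adjusted p = 0.494). At day 30, 0 rose and 1 of the 25 fell against control, where 9.6% and 9% of all genes were called higher and lower. Against acute, 0 rose and 1 fell, where the shares were 7.77% and 6.69%, and 2 rises had an unadjusted p under 0.05. The gene was Cdc25b, a phosphatase that activates cyclin-dependent kinases, which fell by 0.57 from control (adjusted p = 0.0225) and by 0.62 from acute (adjusted p = 0.0272). The call against control was lost without control replicate 2 (0.0561). The call against acute was lost with the replicate block (0.0556), with only the 2 groups compared in the fit (0.0604), and without acute replicate 1 (0.0689) or 3 (0.106).

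Of 16 listed centriole duplication genes, 14 could be tested. By limma 0 passed in acute versus control, and 0 at an unadjusted p under 0.05. At day 30, 0 passed against control and 0 against acute, with 2 and 1 at an unadjusted p under 0.05. Of all 12143 genes, 3804 and 3497 had an unadjusted p under 0.05 in these comparisons. The shares called higher were 9.6% and 7.77%, and those called lower 9% and 6.69%. The smallest p of resolution versus control was that of Ccp110, a centriole capping protein that was below background on all arrays (0.59, adjusted p = 0.0568), and of resolution versus acute that of Cep57 (0.31, adjusted p = 0.116). Median differences of the mitosis and centriole lists at day 30 against control were -0.09 and 0.09.

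CpG acts through Tlr9, so the nucleic acid sensing toll-like receptor pathway was read on the same arrays. Tlr9 itself was below background on all 11 arrays and was not tested. Of 17 listed genes 14 were on the array and 12 could be tested. By limma 0 of them passed in acute versus control and 1 had an unadjusted p under 0.05 (Irf5, 0.32, adjusted p = 0.495). Among all 12143 genes 0.239% passed there and 1099 had an unadjusted p under 0.05. At day 30 against control 1 rose and 3 fell of the 12, where 9.6% and 9% of all genes were called higher and lower. Tlr3, the sensor of double-stranded RNA, rose by 1.71 (3.27-fold). Its adaptor Ticam1 fell by 0.87, the kinase Tbk1 by 0.75 and the transcription factor Irf5 by 0.44. The fall of Irf5 (adjusted p = 0.0235 by limma) was lost without any 1 of 4 arrays. Against acute 2 rose and 3 fell (shares over all genes 7.77% and 6.69%), with differences of 1.54 for Tlr3, 0.50 for Tlr7 (named after its value had been seen), -0.76 for Irf5, -0.75 for Tbk1 and -0.73 for Ticam1.

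Across the 6 lists of related genes, 102 distinct genes could be tested. Of these 0 passed in acute versus control by limma, against 8 at an unadjusted p under 0.05. Over all 12143 genes, 0.239% passed there and 1099 had an unadjusted p under 0.05. At day 30 against control 32 passed, where 18.6% of all genes passed in either direction.

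Genes whose levels followed Plk2 over the 11 arrays were named by Pearson's r, as a description that mostly reads the drop at day 30. Among 11646 named genes the 10 with the highest r (0.986 to 0.992) were Lgals8, Cacul1, Gas2l3, Capn15, Plpp3, Tor3a, Ext1, Ube2k, Gch1 and Txnrd1. All 10 had every resolution array below every other array, which restates their choice by r with Plk2. Over all genes, no overlap in the lower direction was seen for 11.2% against control and 12.9% against acute. They differed widely in the size of their drop. Plpp3 went from 14.09 ± 0.71 in control to 7.66 ± 0.16 in resolution arrays, whereas Lgals8, a galectin, went from 14.79 ± 0.03 to 13.97 ± 0.07 and Ube2k, a ubiquitin-conjugating enzyme, from 15.46 ± 0.02 to 15.18 ± 0.03. Ext1, a heparan sulfate polymerase, went from 13.21 ± 0.19 to 10.77 ± 0.33, and Txnrd1, thioredoxin reductase, from 16.73 ± 0.06 to 14.82 ± 0.30. The r of Plk3 with Plk2 was -0.29. Of the 8 genes like Plk2 with a RefSeq promoter window, 0 held TGACGTCA and 1 held TGACGT, where 3.45% and 12.5% of tested genes did.

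The 10 genes most like Plk3 had lower r (0.856 to 0.905) and included Tmem150b, Tbc1d19, the integrin Itgad, the hyaluronan receptor Cd44 and the kinase Map3k8. None of them had resolution arrays all above or all below the others, and neither had Plk3, by which they were chosen. Itgad had log2 means of 13.02 ± 0.33, 12.22 ± 0.46 and 12.95 ± 0.23 in control, acute and resolution arrays, and Cd44 of 16.12, 15.96 and 16.21. The points of these correlations share the groups, so they describe the order of the group means as much as single arrays.

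With group means removed, the variation of Plk2 and Plk3 among mice of one group was compared. Plk2 deviated most on acute replicate 1, at 0.71 above its group mean, and resolution replicate 1, at 0.62. Plk3 was 0.28 and 0.21 above its group means on the same arrays. Over all 11 arrays Pearson's r of the deviations was 0.57 (exact permutation p = 0.142, two-sided, over 3456 permutations within groups) and Spearman's rho was 0.60 (exact permutation p = 0.111), 1 relation tested. Without those arrays, the 2 farthest from the median for Plk2, and with group means taken again, r was 0.01 (exact permutation p = 0.976). Leaving out the extremes of Plk2 narrows its range, so this r does not show that a relation is absent. For Plk2, 3 of the 4 resolution arrays were not above background. Over the 7 day 10 arrays alone, all above it, r was 0.59 (exact permutation p = 0.271). With each of the 11 arrays left out in turn, r was lowest without acute replicate 1, at 0.34 (exact permutation p = 0.444). It was highest without control replicate 4, at 0.77 (exact permutation p = 0.0428), the only p of r under 0.05 among these 11 fits.

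**Figure D5:**
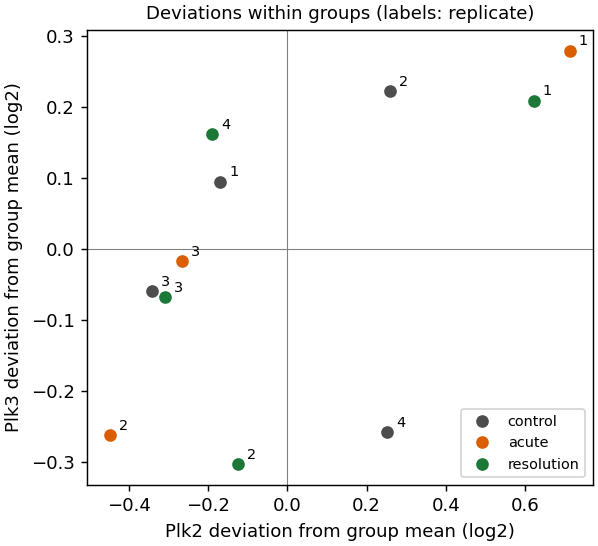
Deviations of Plk2 (horizontal axis) and Plk3 (vertical axis) from their group means in log2(intensity + 1), 1 point per array, coloured by group and labelled with the replicate number. Acute replicate 1 (0.71, 0.28) and resolution replicate 1 (0.62, 0.21) stand at the upper right. Without them, and with group means taken again from the remaining arrays, r was 0.01.

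The genes with the highest r to Plk2 in these deviations were Tpm1 (0.98), Acod1 (0.95), Casp6 (0.94), Flrt2 (0.94) and Cxcl10 (0.92). Flrt2 and Cxcl10 were below background on all 11 arrays, and Tpm1 was above it on 1 array, acute replicate 1. Acod1, which makes itaconate in activated macrophages, was well measured on the day 10 arrays. Its log2 level was 7.20, 7.98, 7.08 and 8.99 in control arrays, 9.92, 7.53 and 8.25 in acute arrays and 6.59, 4.62, 4.58 and 4.64 in resolution arrays. Acute replicate 1 and resolution replicate 1 were thus the highest of their groups for Acod1 as for Plk2. For Plk3 the 5 genes were Top1 (0.96), Ptprj (0.93), Cdh23 (0.93), Syk (0.92) and Ddx6 (0.92), of which Cdh23 was below background on all 11 arrays. These are the highest values among 11646 genes over 11 arrays and are given without a test.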

How the data were processed

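Total RNA of purified lavage cells was taken up in Trizol, and a 3' IVT Pico kit gave the biotin label, per the labels' protocols. The deposited values are linear intensities per transcript cluster, made with Affymetrix Expression Console per the submitters' processing notes. The version and summary method of that program were not stated there. They were used unscaled as log2(intensity + 1). The highest-mean cluster stood for each symbol. Genes with at least 3 of 11 arrays above that array's own 40th percentile were kept (12143). With limma 3.58.1 (R 4.3.3), 1 mean was fitted for each group, with 8 residual and 4.48 prior degrees of freedom, two-sided tests, Benjamini-Hochberg adjustment and a threshold of 0.05, and the procedure was tested on simulated data.

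Where the lower group's mean was within 1 SD of its mean background, the fold is given as "at least", computed from that background or the group's mean, whichever was higher. The 90th percentile as background was a choice made after values had been seen. The members and the gene lists were chosen with earlier results of these data known. Named genes were the family, up to 4 members per list and comparison (largest differences past the threshold, otherwise the smallest p), the most alike genes by r, genes next to Plk2 in the order of differences, RefSeq neighbours, and 1 gene per marker list. The markers Fabp4, Scgb1a1, Epcam, Cdh1, Cdh5 and Retnlg were named outside this rule. Epcam and Cdh1 were named because they ran opposite to the other epithelial markers, and Cdh5 and Retnlg because they were high on control replicate 4. The number of arrays limits the precision. Promoter windows and gene order came from RefSeq tables of GRCm38.p6, and the array annotation came without a stated build. The alternatives tried were pseudocount, filter, scaling, replicate block, intensity trend, array weights, only the 2 groups compared, and each array left out. Marker lists of neutrophils, monocytes, B cells, dendritic cells, endothelium, fibroblasts and red cells were measured as well.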

Additional observations from a re-analysis of the deposited data

Results flagged for a closer look

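In 7 of 184 groups of 4 arrays examined (92 of the named genes in control and resolution), 1 array lay farther from the others than Dixon's 95% critical value, a rate that chance gives in about 1 of 20 groups. None was a group of a polo-like kinase. Acod1 was highest on resolution replicate 1 (6.5944), which was also the highest resolution array for Plk2. Nr4a1 was highest on resolution replicate 4 (14.5686). Kif2c (7.4046) and Tmem209 (7.8696) were lowest on resolution replicate 2, and Cdc25b on resolution replicate 3 (7.0832). Ccp110, below background, was lowest on control replicate 2 (4.4871), and the monocyte marker Vcan was highest on control replicate 3 (6.709).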

How the results depend on the processing

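The differences of Plk2 kept their direction under every alternative run, as did the acute minus control difference of Plk3. With an array left out, the day 30 difference of Plk3 was 0.0013 to 0.1884 from control, near 0, and 0.248 to 0.5188 from acute. Plk2 and Plk3 passed the limma test at the end of the CpG course under no alternative (adjusted p for Plk2 0.191 to 0.813). Same-numbered arrays did not deviate together (10 pairs, r of deviations -0.124 to 0.087, against -0.140 to 0.200 in 30 other pairs). The numbers thus showed no sign of pairing, although a weak pairing could be missed. With the replicate block the acute difference was -0.76 for Plk2 (adjusted p = 0.465) and -0.31 for Plk3. The cause of the following changes was not tested unless fewer arrays or genes entered the fit. Genes called higher in acute versus control numbered 38 with an intensity trend, 13 with only the 2 groups compared, 39 with array weights and 5 to 23 with an array left out, against 23. Genes called lower there numbered 3 under median scaling, under quantile normalization and with only the 2 groups compared, 13 with the trend, 15 with array weights and 0 to 8 with an array left out, against 6. In resolution versus acute, 943 higher and 812 lower became 676 and 987 under median scaling and 685 and 1151 under quantile normalization, and lay at 551 to 998 and 514 to 848 with an array left out. In resolution versus control, 1166 higher and 1093 lower became 893 and 1198 under median scaling. List counts of resolution versus acute ranged, with an array left out, from 1 to 2 for partners, 10 to 17 for immediate early genes and 0 to 1 for mitosis genes, the last also 0 with the replicate block and with only the 2 groups compared. Against control, mitosis genes ranged from 0 to 3, and centriole genes from 0 to 1, with 1 under quantile normalization, the trend and array weights. Differences near 0 changed sign. Gpbp1, acute minus control, was -0.0297 with the replicate block, -0.0139 with array weights and -0.0771 to 0.1225 with an array left out. Plk4 in that comparison ran from -0.2679 to 0.0529. Kif2c, resolution minus control, was -0.0028 under quantile normalization and -0.0434 to 0.1853 with an array left out. Plk5, below background, ran from -0.2078 to 0.0025 against control, and against acute was -0.0468 under median scaling, -0.006 under quantile normalization, -0.0083 with the replicate block and -0.0888 to 0.1215 with an array left out. The within-group r of Plk2 and Plk3 ran from 0.3421 to 0.772. Signal near background limits the day 30 level of Plk2 to a bound.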
